A study of Mus musculus with 8 samples.

Results

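Aminoacyl-tRNA synthetases join each amino acid to its matching tRNA, the step that lets the ribosome read the genetic code. One set of enzymes serves the cytosol and a second, encoded by other nuclear genes, is imported to charge the tRNAs of mitochondria. In mammals several cytosolic enzymes sit together in a multi-synthetase complex held by scaffold proteins, the enzymes fall into class I and class II by the fold of their catalytic domain, and many cytosolic synthetase genes are known targets of ATF4, the transcription factor of the amino acid response.

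The genes described here were the 36 synthetase genes of a fixed list, 20 cytosolic and 16 mitochondrial, found by their symbol among 23846 gene entries of one expression table. Symbols are those of the table, in which a mitochondrial enzyme ends in 2. All 36 were among the 12629 entries that had a value in every library and a mean of at least 1 FPKM (a level that the authors scaled for the length of the transcript and the number of fragments sequenced), so no synthetase was left out of the test. The values came from RNA-seq of whole mouse hearts at embryonic day 11.5 (E11.5), 4 from cKO embryos and 4 from littermate controls, with 1 library each. The cKO embryos were Ogt f/y; TnT-Cre males, in which cardiac troponin T regulatory sequence drives Cre and removes floxed Ogt, the X-linked gene of O-GlcNAc transferase, from cardiomyocytes. The labels call the other group control and give a B6 background, whereas the methods give a mixed one of 129/SvJ and C57BL/6J. The labels and methods do not give the Cre or floxed-allele status of the control embryos. The comparison asked how cardiomyocyte loss of Ogt changed the heart transcriptome.

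Ogt was 41.6, 43.3, 37.5 and 46.2 FPKM in control replicates 1 to 4 and 20.1, 21.6, 24.7 and 21.5 FPKM in cKO replicates 1 to 4. The groups did not overlap, at 42.1 ± 3.64 against 22.0 ± 1.93 FPKM (SD, n = 4 each, p = 0.0286 by an exact permutation test, two-sided, and no smaller p is possible with 4 against 4), and whole hearts also hold cells without Cre. All 10 cardiomyocyte markers were above the filter and limma called 0 of them (0 also at an unadjusted p under 0.05), but without control replicate 3 it called 3 higher and 2 lower. Endothelial markers were lower for 7 of 10, with a summed level of 380 to 418 FPKM in control and 329 to 352 in cKO hearts, and epicardial markers were higher for 5 of 9, at 190 to 208 against 237 to 275 FPKM. The share called over all entries tested was 15.9% higher and 14.9% lower. These marker counts were not stable. The endothelial count was 2 with haemoglobin removed, 4 without control replicate 2 and 3 without cKO replicate 2. It was 1 in the libraries of the second label prefix alone, a grouping described further on. The epicardial count was 3 without control replicate 2 and 2 without control replicate 4, cKO replicate 1 or cKO replicate 3. Among cushion and smooth muscle markers 1 of 9 was higher and 2 lower (summed level 1129 to 1328 against 918 to 1116 FPKM, and 0 higher after leaving out any single library except control replicate 3 or cKO replicate 1, each of which gave 3), and among proliferation markers 3 of 10 were higher and 1 lower (718 to 778 against 730 to 811 FPKM). Erythroid markers had 0 calls by limma in 12 entries (0 unadjusted, and 1 higher without control replicate 4), but their summed level ranged from 17879 to 70775 FPKM in control and from 37104 to 55259 in cKO hearts. The 5 macrophage markers tested had 0 calls by limma (0 unadjusted) and summed to 7.71 to 18.3 FPKM in control and 11.2 to 17.1 FPKM in cKO hearts, and all 9 epicardial and 10 endothelial markers were above the filter. In RNA of whole hearts, fewer cells of a type and less RNA per cell cannot be told apart, and the part of cell makeup in the results below was not tested. Over all entries tested, control replicate 3 stood furthest from its group, with a median distance of 0.162 on the log2 scale from the other controls, against 0.06 to 0.10 for the other 7 libraries from their own groups. Over the 36 synthetases it did not stand apart, at 0.10, as for control replicate 4 and cKO replicate 1.

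Of the 36 synthetases, 11 differed between cKO and control hearts at an adjusted p under 0.05 (limma on log2(FPKM + 0.5), Benjamini-Hochberg over all 12629 entries). That is a share of 30.6%, beside 30.7% of all entries tested, so the synthetases were called no more often than the background. Of the 11, 6 were higher and 5 lower in cKO hearts, where the background was 15.9% higher and 14.9% lower. The 4 control and 4 cKO libraries did not overlap for 10 of the 36, against 32.8% of all entries. No synthetase both passed the test and changed by more than 1.5-fold, as 3.58% of all entries did. The median size of change, without its sign, was 0.15 on the log2 scale for the synthetases and 0.14 for all entries. The 20 cytosolic enzymes had 2 higher and 3 lower, with a median log2 fold change of 0.02, and the 16 mitochondrial enzymes had 4 higher and 2 lower, with a median of -0.09, beside 0.02 over all entries. The mitochondrial counts turned on single libraries and on the scaling. They were 1 higher and 2 lower when control replicate 2 or cKO replicate 4 was left out or low values were not filtered, 2 higher and 2 lower without cKO replicate 2, 3 higher and 4 lower without control replicate 4 or cKO replicate 1, and 4 higher and 5 lower with median ratio scaling, so no balance between directions can be read from them.

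**Figure D1:**
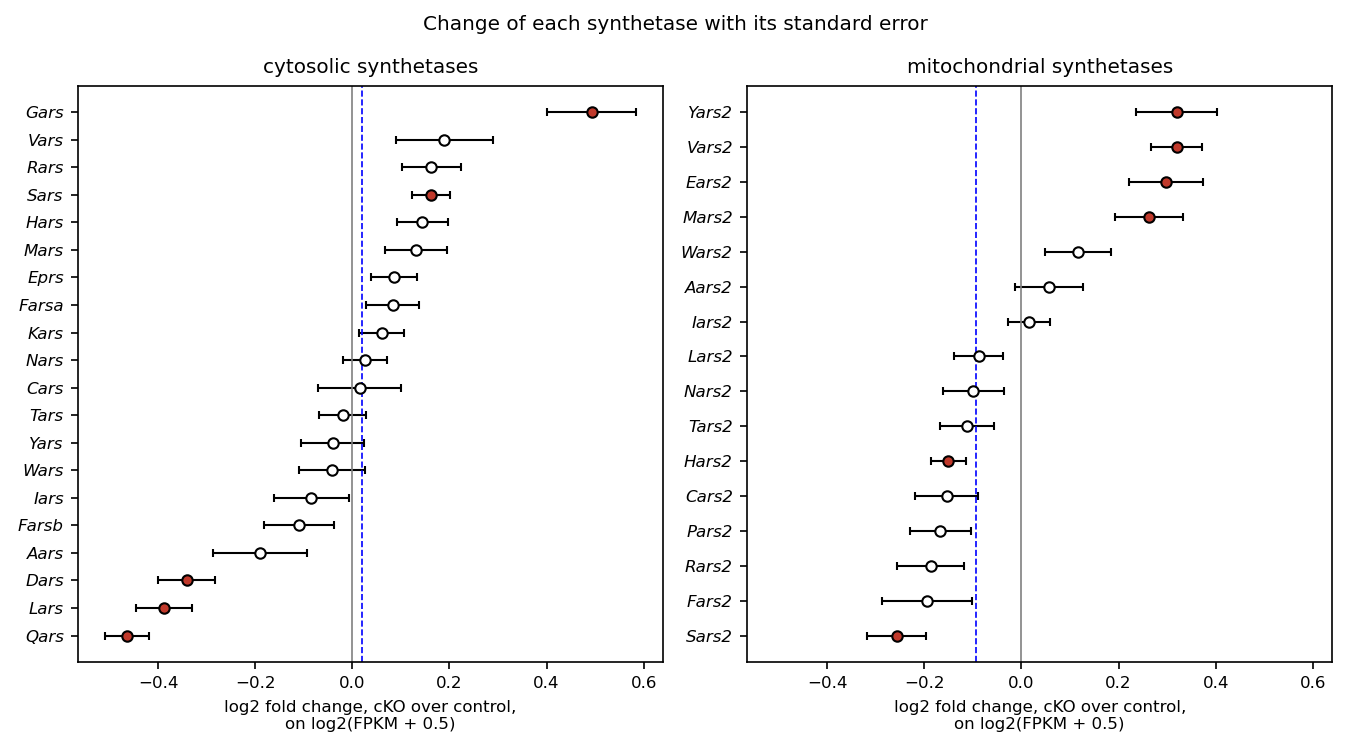
The log2 fold change of cKO over control (x axis, on log2(FPKM + 0.5)) for the 20 cytosolic (left) and 16 mitochondrial (right) synthetases, with standard error bars. Filled points are the 5 and 6 enzymes called at an adjusted p under 0.05, the grey line is 0 and the dashed line the median of each set, 0.02 and -0.09. Changes ran from -0.46 for Qars to 0.49 for Gars.

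The promoters of 3 genes are shown because they belong to the cytosolic enzyme with the largest rise (Gars), the enzyme with the largest fall (Qars) and the mitochondrial enzyme with the smallest adjusted p (Vars2). They are RefSeq sequences of GRCm38.p6 on the strand of the gene, 250 bases before the start and 50 after it. Capitals mark matches to motifs described further on.
Gars, chr6:55037751-55038050, plus strand: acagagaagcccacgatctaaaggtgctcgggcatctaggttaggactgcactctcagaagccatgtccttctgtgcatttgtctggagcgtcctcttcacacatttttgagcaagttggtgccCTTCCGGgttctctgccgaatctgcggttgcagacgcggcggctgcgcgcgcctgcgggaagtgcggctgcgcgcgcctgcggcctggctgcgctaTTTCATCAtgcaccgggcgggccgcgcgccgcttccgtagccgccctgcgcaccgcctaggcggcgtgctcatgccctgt
Qars, chr9:108507755-108508054, plus strand: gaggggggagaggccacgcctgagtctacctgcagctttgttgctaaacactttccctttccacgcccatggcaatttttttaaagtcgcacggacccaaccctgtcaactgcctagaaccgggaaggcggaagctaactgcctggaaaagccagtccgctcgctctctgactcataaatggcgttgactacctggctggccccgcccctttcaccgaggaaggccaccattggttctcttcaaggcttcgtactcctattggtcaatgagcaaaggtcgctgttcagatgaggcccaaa
Vars2, chr17:35667543-35667842, minus strand: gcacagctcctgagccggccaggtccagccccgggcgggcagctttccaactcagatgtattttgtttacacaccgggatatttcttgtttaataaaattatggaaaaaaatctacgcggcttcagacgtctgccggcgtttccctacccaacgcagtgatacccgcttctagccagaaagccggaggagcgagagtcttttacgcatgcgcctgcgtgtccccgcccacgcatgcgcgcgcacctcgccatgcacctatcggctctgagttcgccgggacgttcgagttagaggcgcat
In these windows only that of Gars held a motif that was searched.

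Among the cytosolic enzymes, Gars was the most abundant of the 20 and rose. Gars charges glycine and supplies both the cytosol and mitochondria from a single gene, which the table places at chr6:55038001-55079504 (mm10, the build used by the authors). Its level was 93.2, 88.4, 114 and 112 FPKM in control replicates 1 to 4 and 136, 154, 137 and 145 FPKM in cKO replicates 1 to 4. Every cKO heart was above every control heart, the log2 fold change was 0.49 (SE 0.09) and the limma adjusted p was 0.00469. Sars, the serine enzyme, was 27.6, 27.8, 29.1 and 27.0 FPKM in control and 31.8, 31.2, 30.9 and 31.2 FPKM in cKO hearts. This was a smaller rise, of 0.16 on the log2 scale (SE 0.04, limma adjusted p = 0.0141), with no overlap.

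The 3 cytosolic enzymes that fell were Qars, Lars and Dars, and all 3 are enzymes of the multi-synthetase complex. Qars, which charges glutamine and lies at chr9:108508005-108515941, was 46.2, 48.5, 50.3 and 47.1 FPKM in control and 35.4, 33.8, 35.9 and 33.6 FPKM in cKO hearts. The fall of 0.46 on the log2 scale (log2 fold change -0.46, SE 0.05, limma adjusted p = 0.000264) had the smallest adjusted p of all synthetases. Lars, the leucine enzyme, was 24.1, 22.7, 23.2 and 21.6 FPKM in control and 19.0, 17.1, 17.5 and 16.1 FPKM in cKO hearts (log2 fold change -0.39, SE 0.06, limma adjusted p = 0.00164). Besides charging leucine, the LARS protein is known in mammalian cells as a leucine sensor upstream of mTORC1. Dars, the aspartate enzyme, was 42.1, 44.0, 48.9 and 43.1 FPKM in control and 34.7, 37.1, 35.1 and 33.1 FPKM in cKO hearts (log2 fold change -0.34, SE 0.06, limma adjusted p = 0.0033). In each of these genes all cKO hearts were below all control hearts.

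Of the 8 enzymes of the complex, 0 were higher and 3 lower, and of the 12 cytosolic enzymes outside it, 2 were higher and 0 lower. The background of 15.9% higher and 14.9% lower stands beside these small counts, and the difference between the sets was not tested. At an unadjusted p under 0.05 the limma counts were 1 higher and 3 lower in the complex and 3 higher and 0 lower outside it. The other 5 enzymes of the complex had log2 fold changes of both signs and overlapping groups, and the median of all 8 was -0.01. Without control replicate 3, with quantile scaling or with haemoglobin removed, 1 enzyme of the complex was called higher, Rars. With the label prefix, described further on, as a covariate it was Mars. With array weights 3 enzymes of the complex were higher and 4 lower. Outside the complex, 1 was lower with array weights or with a replicate block. Eprs, which charges both glutamate and proline, was 46.5, 43.1, 43.9 and 43.4 FPKM in control and 49.5, 46.6, 44.8 and 47.0 FPKM in cKO hearts. Kars, the lysine enzyme, also used in mitochondria, was 75.7, 70.9, 76.9 and 74.02 FPKM in control and 80.7, 76.7, 74.3 and 78.6 FPKM in cKO hearts. Iars, the isoleucine enzyme, was 35.8, 33.2, 27.8 and 31.1 FPKM in control and 32.1, 29.5, 29.0 and 29.5 FPKM in cKO hearts. These 3 enzymes differed by less than the test could call, with log2 fold changes of 0.09, 0.06 and -0.08.

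Mars, the methionine enzyme, was 25.3, 23.9, 22.0 and 21.4 FPKM in control and 27.3, 24.4, 24.6 and 25.2 FPKM in cKO hearts (log2 fold change 0.13). Rars, the arginine enzyme, was 47.7, 46.5, 53.2 and 45.2 FPKM in control and 57.0, 54.4, 51.7 and 52.6 FPKM in cKO hearts (log2 fold change 0.16, SE 0.06, limma adjusted p = 0.0724). The overlap of Rars came from control replicate 3, and without that library its adjusted p was 0.00654. The same held for Hars, the histidine enzyme outside the complex, at an adjusted p of 0.0663 with all libraries and 0.0103 without control replicate 3. The 3 scaffolds of the complex had 0 calls by limma, and 0 at an unadjusted p under 0.05: Aimp1 was 56.2 to 69.6 FPKM in control and 55.3 to 57.2 in cKO hearts, and Aimp2 38.8 to 45.8 against 38.1 to 39.8 FPKM. For Eef1e1, the third scaffold, the log2 fold change was 0.18 (limma adjusted p = 0.144, and 0.0437 without control replicate 3).

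**Figure D2:**
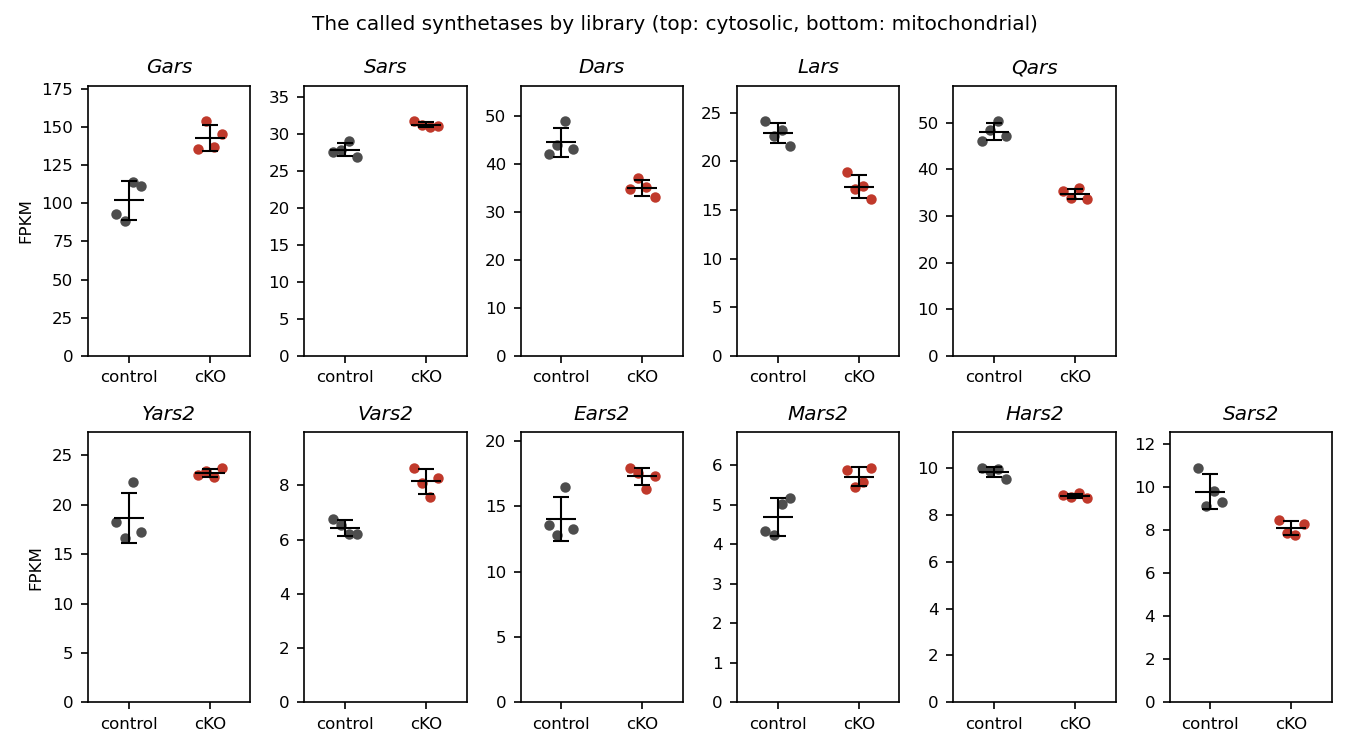
FPKM (y axis, from 0) of the 11 called synthetases in the 4 control (grey) and 4 cKO (red) hearts, each point 1 library, with the group mean and SD as black bars. The groups do not overlap in 10 of the 11 panels, and in Ears2 control replicate 3, at 16.5 FPKM, lies above the lowest cKO heart.

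The 15 cytosolic enzymes not called had log2 fold changes between -0.19 and 0.19, 9 above and 6 below 0. Nars, the asparagine enzyme and after Kars the most abundant of them, was 50.4, 51.0, 54.3 and 54.5 FPKM in control and 54.5, 54.1, 53.8 and 51.7 FPKM in cKO hearts. Farsa and Farsb, the subunits of the cytosolic phenylalanine enzyme, had log2 fold changes of 0.08 and -0.11, neither called. The remaining members of this set (Aars, Cars, Tars, Vars, Wars and Yars) lay between -0.19 and 0.19 as well. The lowest cytosolic level was that of Cars, the cysteine enzyme, with a mean of 8.85 FPKM over the 8 hearts. In the table Aars shares 532 bases with Exosc6, which the GENCODE gene annotation puts on the same strand. Exosc6 averaged 10.1 FPKM in control and 14.9 in cKO hearts. How the shared reads were divided is not given in the sources used here, so the Aars value is uncertain. Mars and Ddit3 share 68 bases, and Yars and C77080 share 30.

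The mitochondrial enzymes were less abundant, with a median of their means of 10.1 FPKM against 31.4 FPKM for the cytosolic set. Vars2, the valine enzyme, was 6.77, 6.53, 6.21 and 6.19 FPKM in control and 8.65, 8.09, 7.56 and 8.28 FPKM in cKO hearts. It rose by 0.32 on the log2 scale (SE 0.05, limma adjusted p = 0.00253), with no overlap. Yars2, the tyrosine enzyme, was 18.3, 16.7, 22.3 and 17.3 FPKM in control and 23.0, 23.4, 22.8 and 23.8 FPKM in cKO hearts (log2 fold change 0.32, SE 0.08, limma adjusted p = 0.0197). The cKO hearts were nearly alike, and control replicate 3 lay just below them.

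Ears2, which charges glutamate, was 13.6, 12.8, 16.5 and 13.2 FPKM in control and 17.9, 17.5, 16.3 and 17.3 FPKM in cKO hearts (log2 fold change 0.30, SE 0.08, limma adjusted p = 0.019). Mars2, the methionine enzyme, was 4.34, 4.22, 5.02 and 5.18 FPKM in control and 5.87, 5.45, 5.57 and 5.94 FPKM in cKO hearts (log2 fold change 0.26, SE 0.07, limma adjusted p = 0.0216). The calls of Yars2, Ears2 and Mars2 were near the threshold and were lost without some single libraries. For Yars2 the limma adjusted p was 0.0537 without control replicate 2, 0.0506 without control replicate 4, 0.0509 without cKO replicate 2 and 0.056 without cKO replicate 4. For Ears2 it was 0.0538 without control replicate 2, 0.0509 without cKO replicate 2 and 0.0503 without cKO replicate 4. For Mars2 it was 0.0544 and 0.0576 without control replicates 1 and 2, and 0.0545 and 0.0654 without cKO replicates 1 and 4. Vars2 was called in every one of the 20 alternative analyses, as were Gars, Qars, Lars and Dars.

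The 2 mitochondrial enzymes that fell were Sars2 and Hars2. Sars2, the serine enzyme, was 10.9, 9.14, 9.83 and 9.30 FPKM in control and 8.49, 7.86, 7.78 and 8.29 FPKM in cKO hearts (log2 fold change -0.26, SE 0.06, limma adjusted p = 0.0133). Hars2, the histidine enzyme, was 10.003, 9.84, 9.97 and 9.54 FPKM in control and 8.83, 8.77, 8.92 and 8.72 FPKM in cKO hearts. Its log2 fold change was only -0.15 (SE 0.04, limma adjusted p = 0.0135), and the libraries of each group were so alike that the groups did not overlap. Both genes were lower in all 4 cKO hearts than in any control heart. Without the haemoglobin entries, whose summed level was 17807 to 70547 FPKM in control and 36982 to 55076 FPKM in cKO hearts, the adjusted p of Hars2 was 0.0731.

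By enzyme class, the 4 mitochondrial enzymes that rose all belong to class I (4 higher and 0 lower of 9) and the 2 that fell to class II (0 higher and 2 lower of 7), beside 15.9% higher and 14.9% lower of all entries. The arrangement depended on the processing. With median ratio scaling class I had 4 higher and 2 lower (Cars2, limma adjusted p = 0.0499, and Rars2, 0.039), and with array weights 5 higher and 2 lower. The class I count was 1 higher without control replicate 2 or cKO replicate 4, 2 without cKO replicate 2, and 3 higher and 1 lower without control replicate 4 or cKO replicate 1. The median log2 fold change was 0.12 for mitochondrial class I and -0.15 for class II. In the cytosolic set there were 0 higher and 2 lower of 9 in class I and 2 higher and 1 lower of 10 in class II. At an unadjusted p under 0.05 the mitochondrial counts were 4 higher and 2 lower in class I and 0 higher and 3 lower in class II, and the cytosolic class I count was 1 higher. The classes were compared by counts only, and no difference between them was tested. The 10 mitochondrial enzymes not called had log2 fold changes of -0.19 to 0.12, 3 above and 7 below 0.

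Iars2, the isoleucine enzyme, was the most abundant mitochondrial synthetase, at 35.5, 33.3, 34.5 and 32.7 FPKM in control and 35.3, 34.8, 34.2 and 33.3 FPKM in cKO hearts. Rars2, the arginine enzyme, was 17.9, 17.5, 20.4 and 17.0 FPKM in control and 17.5, 15.6, 15.1 and 15.4 FPKM in cKO hearts (log2 fold change -0.19, SE 0.07, limma adjusted p = 0.0728, and 0.0389 without cKO replicate 1). Only cKO replicate 1 of Rars2 reached the control range. The Iars2 entry shares 85 bases with Rab3gap2 on the other strand and holds 2 microRNA entries of that strand. Cars2, for cysteine, and Pars2, for proline, were also near the threshold. Cars2 had a limma adjusted p of 0.107 with all libraries and 0.0269 without control replicate 4, and Pars2 had 0.0757 with all libraries, 0.044 without control replicate 4 and 0.0385 without cKO replicate 1. The other 6 (Aars2, Fars2, Lars2, Nars2, Tars2 and Wars2) were called neither with all libraries nor without any single one.

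For 13 amino acids the list holds a cytosolic and a separate mitochondrial enzyme with matching symbols. The cytosolic and mitochondrial enzymes of phenylalanine, glutamate and proline, whose symbols do not match in this way, were not paired. The ratio of the levels of a pair in each heart compares the sets within a library, where any factor common to both genes cancels. The cytosolic enzyme was the higher of the pair in all 8 hearts for 10 of the 13. The mean ratio ran from 0.84 for Cars over Cars2 in control hearts to 14.01 for Nars over Nars2 in cKO hearts. The log2 fold changes had opposite signs in 9 pairs and the same sign in 4. Among the opposite pairs, Cars, Iars2, Nars, Wars and Yars had changes of only 0.02, 0.02, 0.03, -0.04 and -0.04. None of these genes was called, and the sign of each turned in some alternative analyses. The share of opposite signs among other pairs of genes was not computed. The ratios of the groups did not overlap in 4 pairs of the 13, those of serine, arginine, histidine and leucine. Among single entries tested, the levels of 32.8% did not overlap, and the share for ratios of other genes was not computed. For serine the result had to follow, since Sars and Sars2 each had no overlap, in opposite directions. These ratios are a description, and no test was made of them.

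Serine was the only amino acid with both enzymes called, in opposite directions. The ratio of Sars to Sars2 was 2.53, 3.04, 2.96 and 2.90 in control and 3.74, 3.97, 3.97 and 3.76 in cKO hearts. The ratio of Rars to Rars2 was 2.66, 2.67, 2.61 and 2.66 in control and 3.25, 3.48, 3.43 and 3.41 in cKO hearts, although neither gene was called alone. In the control hearts this ratio had an SD of 0.0286 around a mean of 2.65, and the mean in cKO hearts was 3.39. Control replicate 3 held the highest control level of both genes, and the ratio there was 2.61.

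The ratio of Hars to Hars2 was 3.85, 3.87, 4.27 and 4.09 in control and 5.23, 5.00, 4.66 and 4.96 in cKO hearts. Hars was 38.5, 38.1, 42.5 and 39.0 FPKM in control and 46.2, 43.9, 41.6 and 43.3 FPKM in cKO hearts. The table places Hars and Hars2 on chromosome 18, with 74 bases between their ends. The GENCODE gene annotation puts them on opposite strands, as a divergent pair. Of the 2 genes limma called only Hars2, and the difference between their changes was not tested. The ratio of Lars to Lars2 was 2.03, 2.07, 2.14 and 1.98 in control and 1.71, 1.63, 1.79 and 1.53 in cKO hearts. Lars2 itself was 11.9, 10.97, 10.9 and 10.9 FPKM in control and 11.1, 10.5, 9.76 and 10.5 FPKM in cKO hearts. Of the remaining pairs, Yars and Yars2 differed most in log2 fold change, -0.04 against 0.32. Yars was 22.4, 20.5, 20.1 and 19.0 FPKM in control and 21.9, 19.3, 19.6 and 18.8 FPKM in cKO hearts, and its ratio to Yars2 overlapped between the groups through control replicate 3.

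**Figure D3:**
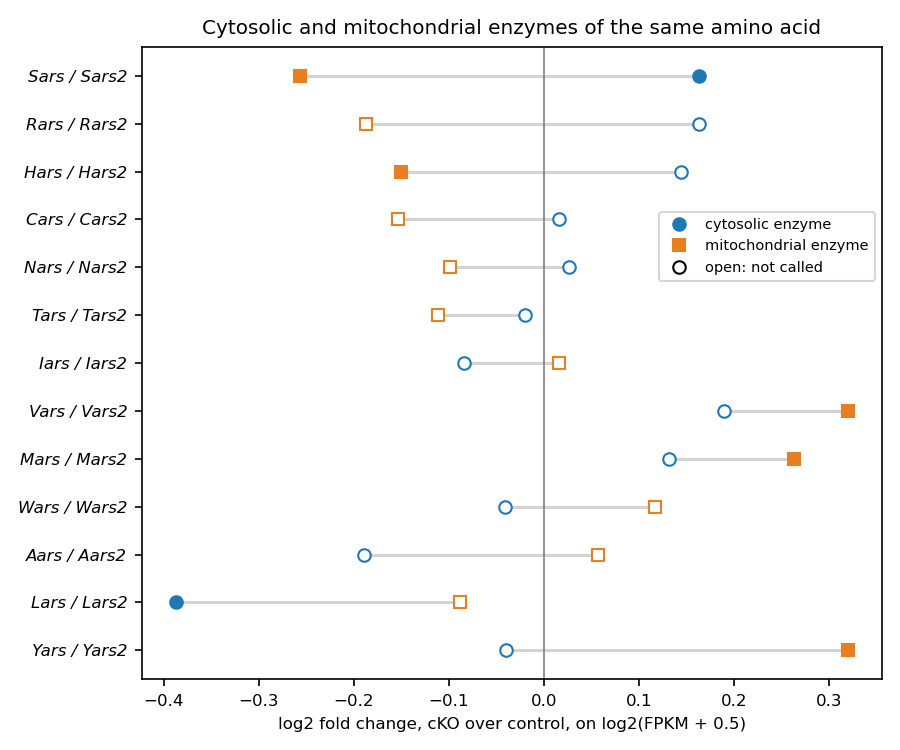
The log2 fold change of cKO over control (x axis) for the cytosolic (blue circles) and mitochondrial (orange squares) enzyme of the 13 pairs with matching symbols, 1 pair per line, ordered by the difference. Filled symbols were called, and both are filled only for Sars and Sars2.

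In the library descriptions the opening line carries one of 2 prefixes, whose meaning is not stated. The titles and value headers of all libraries carry the second prefix, so the labels do not agree on this grouping. By the opening lines, the first prefix holds 2 control hearts and 1 cKO heart and the second holds 2 control and 3 cKO hearts. All 11 called synthetases had the same direction within both prefixes, and 19 of the other 25 did. For the 10 called synthetases whose groups did not overlap, any split of the libraries must give the same direction. The shared direction is therefore no check on those 10. Within the first and second prefix the log2 difference was 0.58 and 0.36 for Gars, 0.19 and 0.15 for Sars, -0.41 and -0.49 for Qars, -0.30 and -0.40 for Lars, and -0.31 and -0.38 for Dars. For the mitochondrial enzymes it was 0.36 and 0.34 for Vars2, 0.39 and 0.24 for Yars2, 0.43 and 0.20 for Ears2, 0.41 and 0.14 for Mars2, -0.22 and -0.25 for Sars2, and -0.16 and -0.14 for Hars2. The 3 mitochondrial rises other than that of Vars2 were thus smaller in the second prefix. In the 5 libraries of the second prefix alone, Yars2, Ears2, Mars2, Sars, Sars2 and Hars2 were not called, with limma adjusted p of 0.0558 to 0.236.

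Other genes of the same pathways were read from lists of related function. Among 6 proofreading and synthetase-like genes, 2 were lower and 0 higher (3 and 0 at an unadjusted limma p under 0.05), beside 30.7% of all entries called. Tarsl2 encodes a second threonyl-tRNA synthetase closely related in sequence to Tars. It was 10.8, 10.3, 11.2 and 10.9 FPKM in control and 5.81, 5.40, 5.74 and 4.48 FPKM in cKO hearts (log2 fold change -0.95, SE 0.08, limma adjusted p = 0.000107). Its change was larger in size than that of any of the 36 synthetases, while Tars had a log2 fold change of -0.02 (limma adjusted p = 0.787). Dtd1, a deacylase that removes D-amino acids from tRNA, fell by 0.31 on the log2 scale (limma adjusted p = 0.0298), a call lost at adjusted p of 0.0543 to 0.0721 when any of control replicates 2 and 4 and cKO replicates 1, 3 and 4 was left out. Of 7 cytosolic elongation factors 1 was lower, Eef1a2 (log2 fold change -0.29, limma adjusted p = 0.0495), a call lost at 0.0879 to 0.12 without any one library other than control replicate 1 or cKO replicate 4. The counts of this list were 2 higher and 3 lower with haemoglobin removed, and 2 higher and 0 lower without control replicate 3.

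Of the 32 targets and partners of ATF4 listed, 27 passed the filter on low values and were tested, with 2 higher and 4 lower, beside a background of 30.7% called. Atf4 itself was 71.4 to 82.4 FPKM in control and 72.5 to 82.0 FPKM in cKO hearts (log2 fold change -0.01). Pycr1, an enzyme of proline synthesis, fell from 3.23 to 1.98 FPKM on average (log2 fold change -0.59, limma adjusted p = 0.000959). Slc7a5, a transporter of leucine and other large neutral amino acids, fell from 13.4 to 9.81 FPKM (log2 fold change -0.43, limma adjusted p = 0.00312). Psat1, an enzyme of serine synthesis, fell from 29.0 to 23.0 FPKM (log2 fold change -0.33, limma adjusted p = 0.0124). Gpt2, a mitochondrial alanine aminotransferase, rose from 3.82 to 4.41 FPKM (log2 fold change 0.19, limma adjusted p = 0.02), a call lost without control replicate 2 (0.0619), cKO replicate 2 (0.0559) or cKO replicate 3 (0.0517). With all libraries the list held calls in both directions, as the cytosolic synthetases did, but its counts were not stable. There were 0 higher without control replicate 2, cKO replicate 2 or cKO replicate 3, and 5 higher and 5 lower without control replicate 3. Array weights gave 9 higher and 8 lower, and the second prefix alone gave 0 higher and 1 lower.

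In the mitochondrial lists, 6 of 15 genes of tRNA amidation, processing and modification were higher and 1 was lower, beside a background of 15.9% higher and 14.9% lower. The higher count was 5 or 6 when any single library was left out. The second prefix alone gave 2 higher and 0 lower. There Qrsl1 (limma adjusted p = 0.0685) and Trmt10c (limma adjusted p = 0.0764) were not called. Trit1, which adds an isopentenyl group to tRNA, was 7.22, 6.83, 7.33 and 7.02 FPKM in control and 10.1, 9.78, 8.70 and 9.75 FPKM in cKO hearts (log2 fold change 0.41, limma adjusted p = 0.000867). Pus1, a pseudouridine synthase, rose from 18.6 to 26.3 FPKM on average (log2 fold change 0.49, limma adjusted p = 0.0011). Trmt10c, a subunit of mitochondrial RNase P, rose from 15.1 to 20.6 FPKM (log2 fold change 0.45, limma adjusted p = 0.00714). Qrsl1 encodes a subunit of the amidotransferase that completes glutaminyl-tRNA in mitochondria after Ears2 has charged it with glutamate, a route that stands in for a mitochondrial glutamine enzyme. It was 11.8, 12.1, 12.1 and 11.4 FPKM in control and 14.1, 14.1, 13.3 and 14.8 FPKM in cKO hearts (log2 fold change 0.24, limma adjusted p = 0.00405). Pet112, which encodes another subunit of that enzyme, was 12.5 to 15.7 FPKM in control and 11.1 to 12.4 FPKM in cKO hearts (log2 fold change -0.18, limma adjusted p = 0.106). Gatc, which encodes the third subunit, had a log2 fold change of -0.03 (limma adjusted p = 0.685), and of these subunit genes only Qrsl1 was called.

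The 12 mitochondrial translation factors had 3 higher and 3 lower, beside the same background. The higher count was 1 without control replicate 2, cKO replicate 2 or cKO replicate 4. Leaving out control replicate 3 gave 5. Guf1, an elongation factor 4 homologue, was 8.72, 8.81, 9.29 and 8.92 FPKM in control and 6.10, 5.82, 6.17 and 6.09 FPKM in cKO hearts (log2 fold change -0.53, limma adjusted p = 8.96e-05). Of the release factor genes, 2 fell, Mtrf1 from 4.41 to 2.52 FPKM (log2 fold change -0.70, limma adjusted p = 0.00085) and Mtrf1l from 4.54 to 3.57 FPKM (log2 fold change -0.31, limma adjusted p = 0.00756). Ptcd3, a protein of the small mitochondrial ribosomal subunit, rose from 47.1 to 58.7 FPKM (log2 fold change 0.32, limma adjusted p = 0.00796). None of the 13 mRNAs encoded by mitochondrial DNA, which these enzymes serve, was found by symbol among the gene entries. They could not be analysed here.

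**Figure D4:**
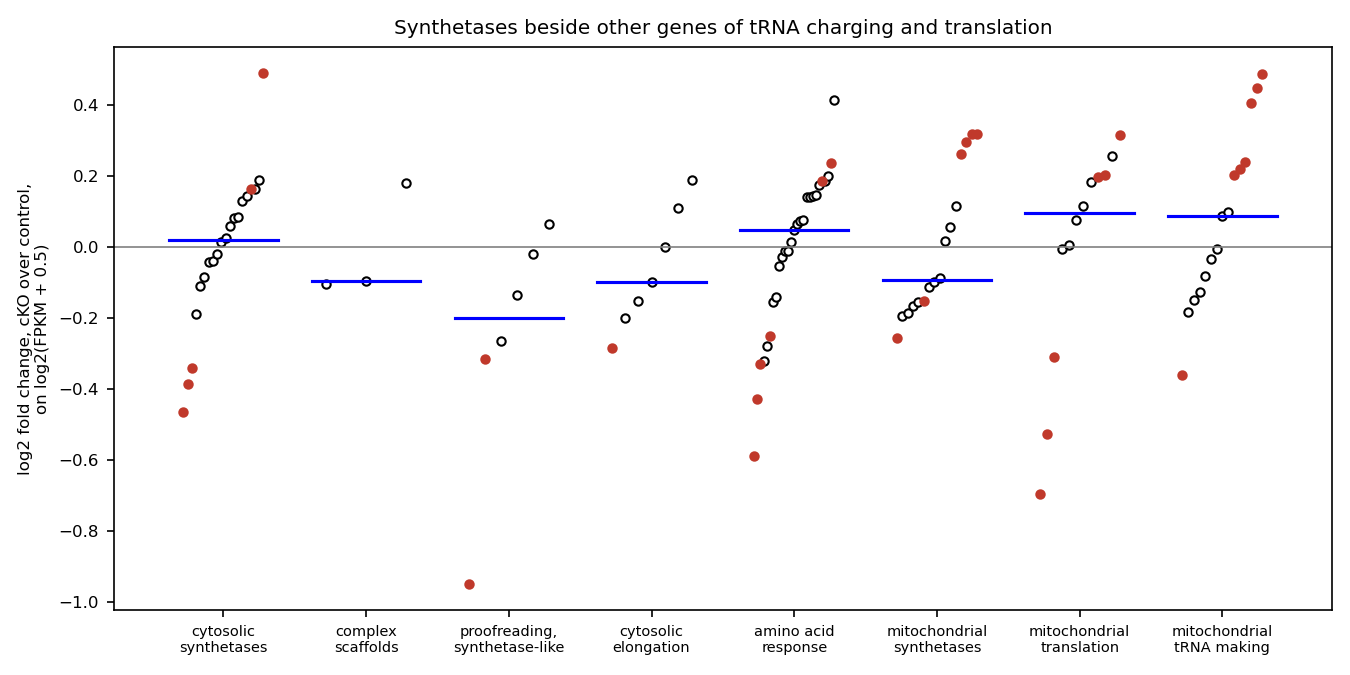
The log2 fold change of cKO over control (y axis) of every tested gene in the cytosolic (20) and mitochondrial (16) synthetase sets and in 6 other lists of 3 to 27 genes, each point 1 gene, red where called and open where not, with the list median as a blue bar. The lowest point is Tarsl2 at -0.95, and each synthetase set has calls on both sides of 0.

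RefSeq promoter windows of 300 bases could be matched to 27 of the 36 synthetases, 13 cytosolic and 14 mitochondrial. Both strands were searched for the amino acid response element TGATGNAA, to which ATF4 binds with a C/EBP partner, the E-box CACGTG and the ETS site CCGGAAG. None of the 3 motifs contains another. In the window of Gars printed with those of Qars and Vars2, TTTCATCA and CTTCCGG are the first and the last of these motifs read from the other strand. TGATGNAA was in 5 of the 13 cytosolic windows (38.5%) and 0 of the 14 mitochondrial ones, against 4.51% of 27025 genes with a window. CACGTG was in 4 cytosolic windows and 1 mitochondrial (8.09% of all genes), and CCGGAAG in 5 and 4 (9.93% of all genes). A match is a run of letters, and binding was not measured.

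The matches to TGATGNAA in 4 of these genes are shown because the share with this motif differed most from that of all genes. Each is given on the strand of the motif with 10 bases on either side and the motif in capitals.
Gars, chr6:55037961-55037988: gcccggtgcaTGATGAAAtagcgcagcc
Iars, chr13:49682127-49682154: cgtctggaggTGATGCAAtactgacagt
Tars, chr15:11399656-11399683: gctaaccagcTGATGCAAcgggactcct
Yars, chr4:129189896-129189923: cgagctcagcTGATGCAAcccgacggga
Of the 5 genes with a match, Gars rose by 0.49 on the log2 scale. The others, Aars, Iars, Tars and Yars, had log2 fold changes of -0.19, -0.08, -0.02 and -0.04 and were not called. Qars, Dars and Sars, which were called, had none in their windows, and Lars was not matched. The 4 mitochondrial enzymes that rose had no motif in common among those searched: Ears2 held CACGTG, Mars2 held CCGGAAG, and Vars2 and Yars2 held none.

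The spread between hearts differed between the groups. The SD of the level was smaller in cKO than in control hearts for 29 of the 36 synthetases, with a median coefficient of variation of 4.55% in cKO and 7.34% in control hearts. Control replicate 3 was the highest control for 15 of the 36 and the lowest for 6. The shares over all entries tested were not computed for these counts, so they are not shown to be particular to the synthetases. Over all entries, the median log2 distance of a library from the others of its group was 0.07 to 0.16 in control hearts. In cKO hearts it was 0.06 to 0.08. Summed over the set, the cytosolic synthetases were at 732 to 777 FPKM in control and 761 to 810 FPKM in cKO hearts, and the mitochondrial at 181 to 202 against 186 to 198 FPKM. The groups overlapped in both sums.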

How the data were processed

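Whole E11.5 hearts were profiled by RNA-seq with a stranded mRNA kit. Reads had been mapped to mm10 (TopHat2, Bowtie2), and the authors deposited FPKM for each gene entry. A p-value column from their own comparison, headed as a t-test, was not used. Tool versions, gene annotation and read depth are not given in the sources used here. Cuffdiff2, the test that the methods name, needs reads. Instead log2(FPKM + 0.5) was tested with limma 3.58.1 in R 4.3.3 (group means, variance trend, Benjamini-Hochberg adjustment). The fit covered the 12629 entries that averaged 1 FPKM or more and had no missing value. The procedure was tested on simulated data. Text codes filled 1.32% of the cells. P-values set the difference of the group means against the spread between hearts, 4 a group. In limma the variance of each entry was drawn toward a trend over all entries tested. Fold changes on this scale understate those of low genes.

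The genes and lists were chosen with earlier results of these data known. Called synthetases, those in a named pair or the complex, and the 2 most abundant uncalled of each set are given by library. From each other list the text names at most 4 called genes, by adjusted p, or at most 2 by mean FPKM if none was called. Atf4, Tars, Eef1e1, Pet112, Gatc, Exosc6, Cars2, Pars2 and others outside this rule were named after their values were seen. Alternatives changed the pseudocount, filter, scaling, variance model, block, prefix and libraries used. The sequence of the promoter matches of 1 gene is not reported here.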

Additional observations from a re-analysis of the deposited data

Results flagged for a closer look

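Of 74 groups of 4 hearts examined (37 genes, the synthetases and Ogt, in 2 groups), 4 held a heart far from the other 3 of its group, and chance gives about 1 in 20. Iars was 32.1 FPKM in cKO replicate 1, above the others at 29.0 to 29.5 FPKM. Fars2, the mitochondrial phenylalanine enzyme, was 14.8 FPKM in control replicate 3, above the others at 11.2 to 11.7 FPKM. Lars2 was 11.9 FPKM in control replicate 1, above the others at 10.9 to 10.97 FPKM. Wars2, the mitochondrial tryptophan enzyme, was 6.02 FPKM in cKO replicate 3, above the others at 5.19 to 5.32 FPKM. None of the 4 genes was called with all libraries.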

How the results depend on the processing

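Of the synthetases called, Gars, Qars, Lars, Dars and Vars2 were called in all 20 alternatives, Sars and Sars2 in 19, Hars2 in 18, Ears2 in 15, and Mars2 and Yars2 in 14. No called synthetase changed direction. With no filter on low values, 1 mitochondrial enzyme was called higher. With quantile scaling, with haemoglobin removed or with the prefix as a covariate, 4 cytosolic enzymes were called higher, and with median ratio scaling 5 mitochondrial enzymes were called lower. Array weights called 6582 genes, with 6 cytosolic enzymes higher and 5 lower and 6 mitochondrial lower. The second prefix alone, with 5 libraries, called 1465 genes, with 1 cytosolic enzyme and 1 mitochondrial enzyme higher and 0 mitochondrial lower. With a mean of at least 5 FPKM, 14 mitochondrial enzymes remained and their median log2 fold change was -0.036. Leaving out 1 library gave 2650 (without cKO replicate 4) to 4951 (without control replicate 3) genes called, 2 to 4 cytosolic enzymes higher (4 without control replicate 3), 1 to 4 mitochondrial higher (1 without control replicate 2 or cKO replicate 4, 2 without cKO replicate 2) and 2 to 4 mitochondrial lower (4 without control replicate 4 or cKO replicate 1). The difference in Ogt was -21.7 to -18.8 FPKM without 1 library, where the exact p cannot go below 0.0571. The causes were not tested.

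The replicate numbers were not taken as pairs, since same-numbered hearts deviated together with r of 0.13, 0.16, -0.01 and 0.01. With a replicate block, 3443 genes were called, with 2 cytosolic enzymes higher and 4 lower and 4 mitochondrial higher and 2 lower, the addition being Aars (limma adjusted p = 0.0493).

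Among uncalled enzymes the sign of the log2 fold change turned for Cars with quantile scaling (-0.0028) and array weights (-0.0891), for Iars2 with quantile scaling (-0.0021) and for Nars in the second prefix alone (-0.0328). Without 1 library it ran from -0.0335 to 0.0735 for Cars (below 0 without control replicate 3, control replicate 4 or cKO replicate 1), from -0.0027 to 0.0369 for Iars2 (below 0 without control replicate 4), and from -0.0840 to 0.0097 for Wars and -0.0848 to 0.0021 for Yars (both above 0 without control replicate 1).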

Other observations

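Gdf15, a secreted stress protein and known target of the amino acid response, had a mean under 1 FPKM and was not tested. It was 0.32, 0.37, 0.45 and 0.62 FPKM in control and 1.24, 1.08, 0.91 and 1.24 FPKM in cKO hearts, with no overlap. Asns, which makes asparagine, passed the filter and was 16.3, 17.6, 13.8 and 14.9 FPKM in control and 15.2, 11.5, 13.2 and 10.2 FPKM in cKO hearts (log2 fold change -0.32, limma adjusted p = 0.0733). Both were picked after their values were seen. Hsd17b10, which with Trmt10c forms part of mitochondrial RNase P, was the gene of the mitochondrial tRNA list that fell, from 88.2 to 68.2 FPKM (log2 fold change -0.36, limma adjusted p = 0.013), while Trmt10c rose. Tufm, the mitochondrial elongation factor that carries charged tRNA to the ribosome, was 100.8, 94.0, 104 and 93.3 FPKM in control and 120, 109, 106 and 115 FPKM in cKO hearts (log2 fold change 0.20, limma adjusted p = 0.0346).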
